A study of Mus musculus with 6 samples.

Results

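The genes that set the pace of the G1 phase were followed in acute myeloid leukemia (AML) blasts with and without Tet2: the D-type cyclins Ccnd1, Ccnd2 and Ccnd3, the E-type cyclins Ccne1 and Ccne2, the kinases Cdk4 and Cdk6, and the inhibitors Cdkn1a, Cdkn1b and Cdkn2c. These 10 genes were chosen by name, from among the 53458 genes to which the deposited transcripts could be assigned, and all 10 had enough reads to be tested. RNA-seq had been made from leukemic bone marrow of 3 Cebpa-/p30 Tet2+/+ mice (19, 23 and 24) and 3 Cebpa-/p30 Tet2-/- mice (5, 7 and 8), 1 library per mouse. Both genotypes lack the full-length p42 form of the myeloid transcription factor C/EBPα and keep only its shorter p30 form, so that they differ by the loss of Tet2, an enzyme that oxidizes 5-methylcytosine in DNA. The leukemias arose after transplantation: C57BL/6J.SJL recipients, which were adult females, had been irradiated and given donor marrow (the samples are labelled C57BL/6) carrying conditional Cebpa and, where deleted, conditional Tet2 alleles, which were recombined by the interferon-inducible Mx1-Cre after injection of poly(I:C). Cells were sorted as live donor (CD45.2+) cells without CD3, B220 and Ter119.

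A cell enters the cycle in G1 when D-type cyclins, made in answer to mitogens and cytokines, bind CDK4 or CDK6 and start to phosphorylate the retinoblastoma protein RB. RB then releases E2F transcription factors, which switch on the E-type cyclins, the partners of CDK2, and the genes of DNA synthesis. The INK4 inhibitor p18, product of Cdkn2c, binds CDK4 and CDK6, whereas p21 (Cdkn1a) and p27 (Cdkn1b) bind cyclin-CDK complexes and restrain CDK2 in particular. In the myeloid lineage these genes are known to change as progenitors stop dividing and mature into neutrophils or monocytes, and CDK6 has an additional role in holding back myeloid differentiation.

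Each library held between 13036643 and 32855343 estimated counts, the deepest being that of mouse 5. Levels are given as CPM (reads scaled to a common library total) after TMM scaling, called normalized CPM. Differences are the log2 fold change of Tet2-/- over Tet2+/+ from the quasi-likelihood test of edgeR, with p adjusted after Benjamini and Hochberg over 22170 genes and a threshold of 0.05. The members had from 49 reads (Ccnd1 in mouse 24) to 17415 reads (Ccnd3 in mouse 5). Tet2 was measured at 73.6, 79.5 and 98.4 normalized CPM in the Tet2+/+ mice and at 111, 79.4 and 96.7 in the Tet2-/- mice. These ranges overlapped, and since the sources used here do not say which exons the floxed allele loses, the level of the whole gene does not check the genotype labels. Myeloid markers were present, with Mpo between 2662 and 4527 normalized CPM and Ptprc (CD45) between 762 and 1221, while Cd3e stayed at 1.14 to 4.24. Markers of other cell types were not absent. T and NK cell markers summed to between 59.6 and 132 normalized CPM, and B cell markers to between 22.8 and 83.0. Plasma cell markers summed to between 199 and 377, and erythroid markers to between 100 and 316. Transcripts of mature neutrophils were abundant: 11 marker genes summed to between 11690 and 58898 normalized CPM in the Tet2+/+ mice and to between 25901 and 122643 in the Tet2-/- mice. In such bulk samples, fewer cells of a type and less RNA per cell cannot be told apart.

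None of the 10 members passed the adjusted threshold. Over all genes the same fit called 10, which is 0.0451% of the 22170 genes tested, and all 10 of these were lower in Tet2-/- blasts. At an unadjusted p under 0.05, 1 of the 10 members was called (Ccnd3), where 8.11% of all genes were. The estimates lay above 0 for 8 members and below 0 for the kinases Cdk4 and Cdk6, and their median was 0.40 on the log2 scale against 0.00 for all genes tested. In 3 members every Tet2-/- mouse lay above every Tet2+/+ mouse: Ccnd3, Ccne2 and Cdkn2c. Of the 13839 genes that averaged 1 normalized CPM or more, 8.24% showed such a separation in this direction. With 3 mice against 3 the smallest p that an exact permutation test can give is 0.1 (two-sided). Any gene whose groups do not overlap has that value, as these 3 genes did, so that it adds nothing to their separation.

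**Figure D1:**
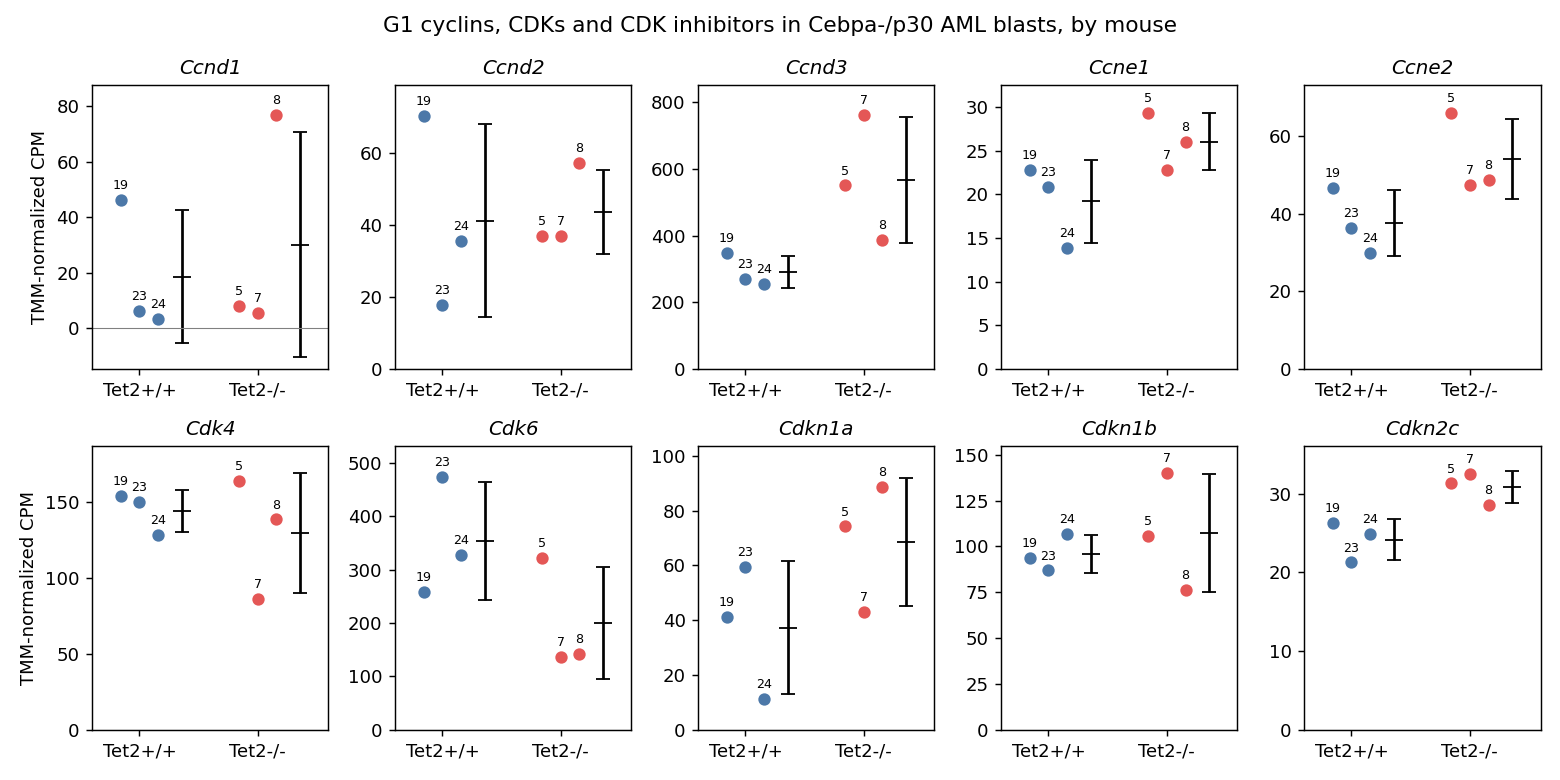
Normalized CPM of each member in each mouse, with Tet2+/+ in blue and Tet2-/- in red, the mouse number above each point and the mean and SD (n = 3) drawn to the right; each panel has its own linear axis. Ccnd3, Ccne2 and Cdkn2c separate by genotype, whereas Ccnd1 is high in mice 19 and 8 alone.

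Ccnd3 (ENSMUSG00000034165, chr17:47505051-47599691, plus strand, GRCm38) encodes cyclin D3, the D-type cyclin best known for its part in the expansion of blood cell precursors. It was measured at 347, 270 and 255 normalized CPM in Tet2+/+ mice 19, 23 and 24, and at 551, 763 and 386 in Tet2-/- mice 5, 7 and 8. All Tet2-/- values were higher than all Tet2+/+ values, though mouse 8 was only a little above mouse 19. The means were 567 ± 189 (SD, n = 3) and 291 ± 49.3 (SD, n = 3). The log2 fold change was 0.96 (SE 0.29, adjusted p = 0.5001, edgeR), a fold of 1.95. Across all 18 settings of the processing, this estimate stayed between 0.69 and 1.18 and never passed the adjusted threshold, the lowest adjusted p being 0.107. Mice 7 and 5, which had the highest Ccnd3, also had the highest summed neutrophil markers (122643 and 66461 normalized CPM). Mouse 8 had 25901, below the 58898 of mouse 19 and the 42912 of mouse 24, and yet had more Ccnd3 than either; all 11 neutrophil markers were measured and none was at 0, and their part in the difference was not tested.

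Most reads of Ccnd3 fell on the downstream of its RefSeq starts. Of 21 annotated transcripts, the 1977-base Ccnd3-205 held between 74.6% and 77.1% of the reads in every mouse, and its start, chr17:47593470, is next to the RefSeq start at 47593467. The 3 transcripts that begin within 500 bases of that start held between 77.4% and 79.9% of the reads. The 13 transcripts that begin within 500 bases of the upstream start at 47505051 held between 1.55% and 5.02%. The rest lay on short forms annotated further in, of which Ccnd3-219 (from 47597164) held between 8.16% and 9.30%. The 250 bases before each start were read from RefSeq (GRCm38.p6), and every window is shown only as far as it holds no more than 30 bases that Ensembl counts as exon. These 2 windows are shown because the reads tell the pair of starts apart; capitals mark GGGCGG or its reverse complement CCGCCC, the GC box bound by Sp1-type factors, which 32.7% of 32851 such windows in the RefSeq table hold.
Ccnd3 upstream start, chr17:47504801-47505050: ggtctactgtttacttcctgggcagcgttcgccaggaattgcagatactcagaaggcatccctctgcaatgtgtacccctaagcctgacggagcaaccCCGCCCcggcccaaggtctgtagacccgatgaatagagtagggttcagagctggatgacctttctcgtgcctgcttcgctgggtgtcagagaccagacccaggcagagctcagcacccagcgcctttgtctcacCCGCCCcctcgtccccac
Ccnd3 downstream start, chr17:47593217-47593465: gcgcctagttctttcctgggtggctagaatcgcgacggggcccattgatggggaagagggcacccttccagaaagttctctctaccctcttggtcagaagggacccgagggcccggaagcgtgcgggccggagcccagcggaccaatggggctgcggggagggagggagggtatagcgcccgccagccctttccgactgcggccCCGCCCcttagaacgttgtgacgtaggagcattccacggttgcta
The downstream window holds 19 CpG dinucleotides, more than 80.3% of all windows, and 1 GC box. The upstream window holds 11 CpG and 2 GC boxes, and the median window holds 6 CpG.

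Over the 9155 other genes with a mean of at least 10 normalized CPM, the 3 whose log2 levels over the 6 mice lay closest to those of Ccnd3, after centring on each gene's mean, were Cyp4f18, Xdh and G6pdx. Their Euclidean distances were 0.296, 0.304 and 0.395. Cyp4f18, a cytochrome P450, ran from 103 to 152 normalized CPM in Tet2+/+ mice and from 160 to 312 in Tet2-/- mice. Xdh, xanthine dehydrogenase, and G6pdx, glucose-6-phosphate dehydrogenase, were likewise highest in mouse 7 and next highest in mouse 5, but their groups overlapped. Mouse 8 lay below mouse 19 in Xdh, at 397 against 430 normalized CPM, and in G6pdx, at 357 against 395. A pseudogene, Ccnd3-ps, shares up to 88.2% of the length of one short Ccnd3 transcript and 44.5% of Ccnd3-205 at an identity of at least 95%. Between 0 and 5 reads were assigned to it per library. The opposite-strand gene Bysl overlaps the 3′ end of Ccnd3 by 361 bases, and the library kit did not keep strand.

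The other D-type cyclins were much lower and showed no separation. Ccnd2 (ENSMUSG00000000184, chr6:127125162-127152193, minus strand) was at 70.4, 17.7 and 35.7 normalized CPM in Tet2+/+ mice 19, 23 and 24 and at 37.0, 37.0 and 57.2 in Tet2-/- mice 5, 7 and 8. All Tet2-/- values lay inside the Tet2+/+ range. Its log2 fold change was 0.08 (SE 0.47, adjusted p = 0.982, edgeR), and it turned negative under 4 of the 17 other settings.

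Ccnd1 (ENSMUSG00000070348, chr7:144929931-144939925, minus strand) was the most variable member. It stood at 46.2, 6.16 and 3.45 normalized CPM in Tet2+/+ mice and at 8.004, 5.59 and 76.8 in Tet2-/- mice. One mouse of each genotype was high, mouse 19 and mouse 8, and the other 4 were at 8.004 or less; the highest value was 22.3 times the lowest. The log2 fold change of 0.69 (SE 1.25, adjusted p = 0.917, edgeR) rested on those libraries: it was 2.64 without mouse 19 and -1.44 without mouse 8. The 3 genes nearest to Ccnd1 in pattern, looked up after its values had been seen, were far from it: their distances, taken as for Ccnd3, were 1.73 to 2.03, against 0.0858 to 0.490 for those nearest to Ccnd3, Ccne2 and Cdk6. The nearest, 2010005H15Rik, was at 567 normalized CPM in mouse 19 and 639 in mouse 8 and between 41.0 and 114 in the other 4. Angptl2, a secreted angiopoietin-like protein, was at 20.9 normalized CPM in mouse 19 and 55.9 in mouse 8 and between 0.422 and 1.68 in the other 4. Apoc2, an apolipoprotein, reached 117 in mouse 8 and 21.2 in mouse 19, but it was at 20.9 in mouse 5 as well. The 10 monocyte and macrophage markers, all measured and none at 0, summed to 762, 1673 and 649 normalized CPM in mice 19, 23 and 24 and to 960, 371 and 2477 in mice 5, 7 and 8. Mouse 8 was thus highest in both, but mouse 23, second in the markers, had little Ccnd1, and the part of these cells in the level of Ccnd1 was not tested. The opposite-strand gene annotated as LTO1 shares 29.5% of the length of the main Ccnd1 transcript, so that reads from that stretch could not be told apart.

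The E-type cyclins, which E2F factors switch on, both had higher means in Tet2-/- mice without passing the test. Ccne2 (ENSMUSG00000028212, chr4:11191351-11204779, plus strand) was at 46.7, 36.4 and 29.9 normalized CPM in Tet2+/+ mice and at 65.9, 47.4 and 48.7 in Tet2-/- mice. The groups did not overlap, but mouse 7 was only just above mouse 19. For Ccne2 the log2 fold change was 0.52 (SE 0.23, adjusted p = 0.628, edgeR), and it ranged from 0.24 to 0.70 over all settings. When scaled by library size alone, or as gene TPM, the groups overlapped. Ccne2 shares 5622 bases of its span with the opposite-strand gene Ints8, and 21.1% of the length of its leading transcript. The nearest genes in pattern were Grhpr, Ldha and Mrpl18, at distances of 0.0858, 0.122 and 0.152. Ldha, lactate dehydrogenase A, was at 440, 343 and 280 normalized CPM in the Tet2+/+ mice and at 621, 427 and 493 in the Tet2-/- mice, so that mouse 7 lay below mouse 19.

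Ccne1 (ENSMUSG00000002068, chr7:38097984-38107534, minus strand) was at 22.9, 20.9 and 13.9 normalized CPM in Tet2+/+ mice and at 29.4, 22.8 and 25.99 in Tet2-/- mice. Mouse 7 and mouse 19 were level, so that the groups just touched. For Ccne1 the log2 fold change was 0.44 (SE 0.24, adjusted p = 0.684, edgeR). In TPM, which counts reads per transcript length, the ranges were apart, at 5.29 to 7.80 in Tet2+/+ mice and 9.10 to 11.5 in Tet2-/- mice. DESeq2 on length-scaled counts gave a log2 fold change of 0.76 and an adjusted p of 0.133, the lowest of any setting. Other settings gave less than the main fit: 0.28 by library size alone (adjusted p = 0.823, edgeR) and 0.25 without mouse 24.

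The shorter forms of Ccne1, which weigh more per length, were looked at after their values had been seen. Ccne1-204, annotated as protein coding with 608 bases, was given 0 reads in all 3 Tet2+/+ mice. It was given 32.3, 19.8 and 31.5 estimated reads in Tet2-/- mice 5, 7 and 8, which is 3.48%, 5.59% and 6.58% of the gene's reads. The long Ccne1-201 held between 96.6% and 98.2% of the reads in Tet2+/+ mice and between 89.2% and 91.4% in Tet2-/- mice. The 628-base Ccne1-203 was also higher in every Tet2-/- mouse, with 0.535% to 0.926% of the reads in Tet2+/+ mice and 1.33% to 3.35% in Tet2-/- mice. Ccne1-205 overlapped between the genotypes, but in mouse 5 it had 1.98 TPM, more than the 1.20 TPM of Ccne1-204. Of the exonic bases of Ccne1-204, 529 are also exonic in Ccne1-201, and the 79 that are not form 1 block, chr7:38106830-38106908, at its 5′ end, 626 bases downstream of the 5′ end of Ccne1-201. Of the 46587 transcripts that averaged 10 reads or more, 128 (0.275%) were at 0 in every Tet2+/+ mouse and above 3 reads in every Tet2-/- mouse, and 74 showed the opposite pattern. Ccne1-204 reached this mean only through the Tet2-/- mice, so that nothing is read from its place among them. A count of 0 allows up to 3 reads per library, and these are model estimates that divide reads between transcripts with nearly the same sequence.

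The main Ccne1 start is dense in CpG, and is shown because most reads of the gene belong to it (the 2 transcripts starting within 500 bases held between 89.8% and 98.8%). Capitals again mark the GC box and its complement.
Ccne1 RefSeq start, chr7:38107505-38107740, minus strand: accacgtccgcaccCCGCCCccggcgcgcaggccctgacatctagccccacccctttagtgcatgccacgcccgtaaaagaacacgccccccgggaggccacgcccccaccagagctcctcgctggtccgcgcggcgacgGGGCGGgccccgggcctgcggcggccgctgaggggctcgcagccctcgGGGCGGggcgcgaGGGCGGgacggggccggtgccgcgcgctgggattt
The whole window of 250 bases holds 34 CpG, more than 96.5% of all windows, and 4 GC boxes, a number reached by 4.09% of windows. The E2F motif, spelled TTTCCCGC, TTTCGCGC, TTTGGCGC, TTTGCCGC, TTTCCCGG, TTTCGCGG, TTTGGCGG or TTTGCCGG on either strand, is not spelled in it. It occurs in 3.68% of all windows.

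The kinases were the only members with estimates below 0. Cdk6 (ENSMUSG00000040274, chr5:3341485-3531008, plus strand) was at 258, 474 and 328 normalized CPM in Tet2+/+ mice 19, 23 and 24 and at 322, 136 and 143 in Tet2-/- mice 5, 7 and 8. Mice 7 and 8 were below all Tet2+/+ mice, whereas mouse 5 lay between mice 19 and 24. The means were 353 ± 110 (SD, n = 3) in Tet2+/+ and 200 ± 105 (SD, n = 3) in Tet2-/- blasts. The log2 fold change was -0.82 (SE 0.40, adjusted p = 0.654, edgeR), and it ranged from -1.35 to -0.57 over all settings. Cdk6 ran beside the stem and progenitor markers except at mouse 5, which had more Cdk6 than mouse 19 but a lower marker sum. Of the 10 genes of that list, all measured, 8 had estimates below 0 and 2 above. They summed to 314, 443 and 371 normalized CPM in mice 19, 23 and 24 and to 244, 164 and 200 in mice 5, 7 and 8. In this sum the groups did not overlap. Most of that sum came from Kit and Cd34; Meis1 was at 0 in mouse 7 and Hlf in mouse 8. The part of such cells in the level of Cdk6 was not tested. The nearest genes in pattern were Tmem254c, Klrk1 and Armcx3, at distances of 0.386, 0.449 and 0.490, and none of them exceeded 31.8 normalized CPM in any mouse. Tmem254c belongs to a family of near-identical copies, between which reads can be divided.

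Cdk4 (ENSMUSG00000006728, chr10:127063534-127067920, plus strand) was at 154, 150 and 128 normalized CPM in Tet2+/+ mice and at 164, 86.0 and 138 in Tet2-/- mice. Mouse 7 lay apart, below the other 5. This gave a log2 fold change of -0.16 (SE 0.25, adjusted p = 0.906, edgeR), and it was 0.07 without mouse 7. Its reads were spread over many annotated forms: 6 of 9 transcripts held at least 5% in some mouse. The full-length Cdk4-201 held only between 1.45% and 2.68%. The retained-intron form Cdk4-207 held 27.5% of the Cdk4 reads in mouse 7 and between 10.8% and 21.1% in the others. The opposite-strand gene Tspan31 shares 31.2% of Cdk4-201, so that reads from this end of the gene could have been counted for either.

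The Cdk4 and Cdk6 promoters are shown for the E-box CACGTG, the letters bound by MYC and its partner MAX, marked in capitals together with the GC box.
Cdk4, chr10:127063285-127063534, plus strand: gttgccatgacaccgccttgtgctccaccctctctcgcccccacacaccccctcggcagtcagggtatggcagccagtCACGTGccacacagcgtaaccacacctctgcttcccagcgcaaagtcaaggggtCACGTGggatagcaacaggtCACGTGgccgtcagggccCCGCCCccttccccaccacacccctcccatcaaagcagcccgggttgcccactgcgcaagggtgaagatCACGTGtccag
Cdk6, chr5:3343643-3343761, plus strand: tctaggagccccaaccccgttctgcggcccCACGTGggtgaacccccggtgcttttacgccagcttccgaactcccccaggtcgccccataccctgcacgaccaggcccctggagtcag
The Cdk4 window spells CACGTG 4 times, a number reached by only 7 of the 32851 windows (0.0213%). The Cdk6 window spells it once, and 6.02% of all windows hold at least 1. Myc itself was at 116, 153 and 118 normalized CPM in Tet2+/+ mice and at 125, 52.1 and 92.8 in Tet2-/- mice, and it was picked out here after its values were seen. Its log2 fold change was -0.52 (SE 0.32, adjusted p = 0.722, edgeR). Mouse 7 was lowest in both Myc and Cdk4, but mouse 8 had less Myc than any Tet2+/+ mouse and yet more Cdk4 than mouse 24, and the part of Myc in the level of Cdk4 was not tested.

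Of the inhibitors, Cdkn2c (ENSMUSG00000028551, chr4:109660876-109667189, minus strand) was the steadiest member and still separated the genotypes. It was at 26.3, 21.3 and 24.9 normalized CPM in Tet2+/+ mice and at 31.3, 32.5 and 28.5 in Tet2-/- mice. All 3 Tet2-/- mice were higher, by a small margin. This gave a log2 fold change of 0.35 (SE 0.17, adjusted p = 0.654, edgeR), a fold of 1.28. Over all settings the estimate ranged from 0.18, by library size alone, to 0.41. In gene TPM the groups overlapped. Cdkn2c has only 2 annotated transcripts, from separate starts: Cdkn2c-202 held between 63.9% and 75.3% of the reads and Cdkn2c-201 between 24.7% and 36.1%, without a split by genotype. RefSeq gives the starts as 109666756 and 109665372. The former lies downstream of the Ensembl 5′ end of Cdkn2c-202 (109667189), so that its window, wholly inside that transcript, is not shown. The window of the latter, which is the 5′ end of Cdkn2c-201, is shown because it is the only one of the 10 windows searched that spells the E2F motif.
Cdkn2c-201 start, chr4:109665373-109665622, minus strand: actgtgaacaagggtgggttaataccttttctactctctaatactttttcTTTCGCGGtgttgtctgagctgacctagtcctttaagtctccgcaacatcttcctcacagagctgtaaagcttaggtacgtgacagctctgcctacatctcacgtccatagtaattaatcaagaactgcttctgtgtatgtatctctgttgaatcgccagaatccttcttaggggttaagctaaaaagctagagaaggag
The window is 42.8% G and C with 6 CpG, against 77.2% and 29 CpG in that of the other start, and holds TTTCGCGG, in capitals, which begins 200 bases before the start.

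Cdkn1a (ENSMUSG00000023067, chr17:29090976-29100727, plus strand) encodes p21, the best known target of p53. It was at 41.1, 59.3 and 11.3 normalized CPM in Tet2+/+ mice 19, 23 and 24 and at 74.2, 42.9 and 88.7 in Tet2-/- mice 5, 7 and 8. Mice 5 and 8 lay above all Tet2+/+ mice, and mouse 7 lay among them. The log2 fold change was 0.88 (SE 0.56, adjusted p = 0.735, edgeR), and leaving out single mice moved it between 0.45 and 1.37. Mouse 8 was highest in Cdkn1a and in the summed monocyte and macrophage markers, and mouse 24 was lowest in Cdkn1a and second lowest in those markers. The part of such cells in the level of Cdkn1a was not tested. Of the 14 p53 targets tested besides Cdkn1a, 8 had estimates above 0 and 6 below. Among them Zmat3, an RNA-binding protein, and Pmaip1, the cell death protein NOXA, were the ones with an unadjusted p under 0.05, 2 of 14 where 8.11% of all genes were called. Both estimates were below 0, with log2 fold changes of -1.29 (adjusted p = 0.599, edgeR) and -0.86 (adjusted p = 0.604, edgeR). The 14 targets summed to 872, 701 and 710 normalized CPM in Tet2+/+ mice 19, 23 and 24. In Tet2-/- mice 5, 7 and 8 they summed to 675, 1354 and 563. This sum was lowest in mouse 8, where Cdkn1a was highest. Its peak in mouse 7 came largely from Btg2 (649) and Trp53inp1 (297). Trp53inp1, Btg2, Perp and Gdf15 were each lowest in mouse 8, whereas Bax and Aen were highest there. These genes were picked out after their values were seen. Bax, which permeabilizes mitochondria in cell death, was at 32.5, 52.4 and 25.98 normalized CPM in Tet2+/+ mice and at 51.5, 26.6 and 60.9 in Tet2-/- mice, and like Cdkn1a it was highest in mouse 8 and lowest in mouse 24. Most Cdkn1a reads belonged to the downstream start at 29093769, where the transcripts starting within 500 bases held between 75.8% and 89.7%, and the upstream start at 29090979 had at most 1.77%. Cdkn1a-203, which begins further in at 29097900, held between 8.52% and 24.2%, the most in mouse 7. It shares between 11.5% and 13.8% of its length with each of a set of other genes at an identity of at least 95%, so that some of its reads could not be told apart.
Cdkn1a downstream start, chr17:29093519-29093768, plus strand: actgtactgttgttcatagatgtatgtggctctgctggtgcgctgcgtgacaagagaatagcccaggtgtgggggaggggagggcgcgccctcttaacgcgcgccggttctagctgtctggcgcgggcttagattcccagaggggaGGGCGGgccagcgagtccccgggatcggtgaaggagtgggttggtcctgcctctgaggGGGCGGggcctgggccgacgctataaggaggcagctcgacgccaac
This window holds 19 CpG and 2 GC boxes, in capitals, whereas the window of the little-used start holds 2 CpG and no GC box. The p53 motif was not among the motifs searched for in either window.

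Cdkn1b (ENSMUSG00000003031, chr6:134920401-134925513, plus strand), the gene of p27, was at 93.9, 86.9 and 107 normalized CPM in Tet2+/+ mice and at 106, 140 and 76.1 in Tet2-/- mice. The Tet2-/- values spanned the whole Tet2+/+ range, with mouse 7 highest and mouse 8 lowest of all. Its log2 fold change was 0.16 (SE 0.24, adjusted p = 0.895, edgeR). It was -0.08 without mouse 7. None of the 10 windows, which cover 7 of the 10 members, spelled a C/EBP motif (TTGCNNAAT, TTGCNNCAA or TTACNNAAT, either strand), which 5.81% of all windows do; this says only that the letters are not in those 250 bases.

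**Figure D2:**
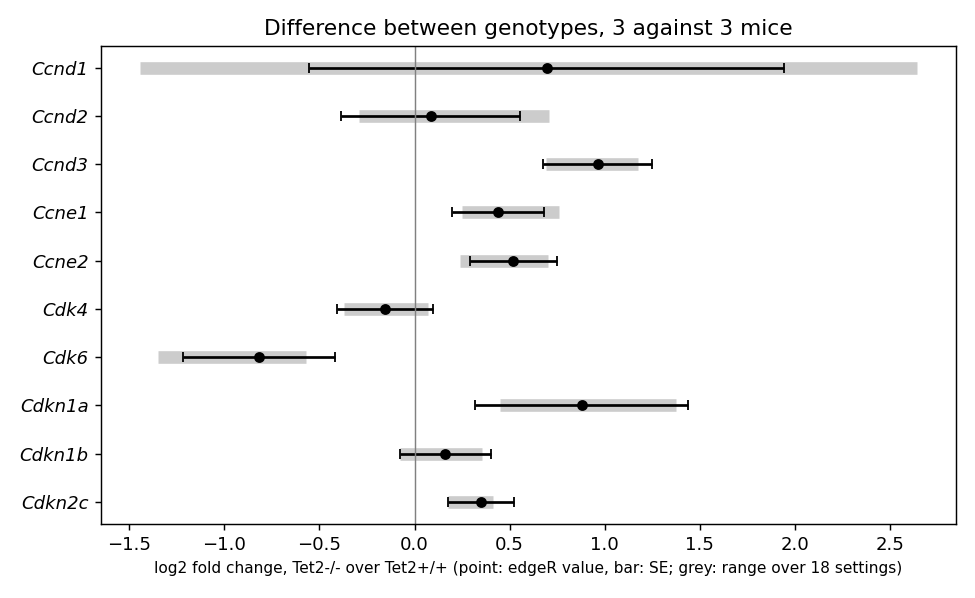
Log2 fold change of Tet2-/- over Tet2+/+ for each member, with its standard error from edgeR (3 against 3 mice) and, in grey, the lowest and highest estimate over all 18 settings of the processing. The grey bars of Ccnd3, Ccne1, Ccne2, Cdk6, Cdkn1a and Cdkn2c stay on one side of 0, whereas that of Ccnd1 runs from -1.44 to 2.64.

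Compared per length, which is needed to set one gene's level against another's, cyclin D3 dominated its class. By the TPM of the transcript with the most reads, Ccnd3 was at 63.0 to 75.3 in Tet2+/+ mice and 84.0 to 157 in Tet2-/- mice. In no mouse did Ccnd2 exceed 5.79 on this scale or Ccnd1 exceed 10.99. Ccnd3 made up 92.1% ± 5.30 (SD, n = 3) of the D-type cyclin total in Tet2+/+ blasts and 92.8% ± 7.55 (SD, n = 3) in Tet2-/- blasts, and its share was lowest in mice 8 and 19 (84.1% and 86.0%), those with high Ccnd1. The order of the other leading transcripts was Cdk4, Cdk6, Cdkn1a, Ccne2, Cdkn1b, Ccne1, Cdkn2c, Ccnd2 and Ccnd1. From Cdk6 to Ccnd1 each gene overlapped its neighbour over the mice; Ccnd3 was above Cdk4 in every mouse, and the lowest Cdk4 value (26.2) was just above the highest Cdk6 value (25.9). The leading Cdk4 form, the retained-intron Cdk4-206, held only 15.98% to 20.4% of the gene's reads and is a poor stand-in for the whole gene.

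The sums of TPM over all transcripts of a gene gave other ranks, since very short annotated fragments weigh heavily per length. For Ccnd2, the 115-base Ccnd2-205 had at most 0.820% of the reads, yet 89.0% of the gene's TPM in mouse 24. Ccnd2 was accordingly ranked 3 of the 10 members by gene TPM and 9 by its leading transcript. For Ccnd3, the leading transcript held at least 74.6% of the reads but between 17.3% and 18.8% of the TPM. In the kinase pair, Cdk6 took 70.1% ± 6.84 (SD, n = 3) of the reads in Tet2+/+ mice and 59.5% ± 7.93 (SD, n = 3) in Tet2-/- mice, against 13.7% ± 3.35 and 9.57% ± 3.09 of the gene TPM (SD, n = 3 each). The Cdk6 share was lower on average in Tet2-/- mice by either measure, with overlapping ranges. Among the inhibitors Cdkn2c kept 14.8% to 15.1% of the reads in the Tet2-/- mice and 12.7% to 17.4% in the Tet2+/+ mice, while Cdkn1a moved between 7.92% and 45.9%.

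**Figure D3:**
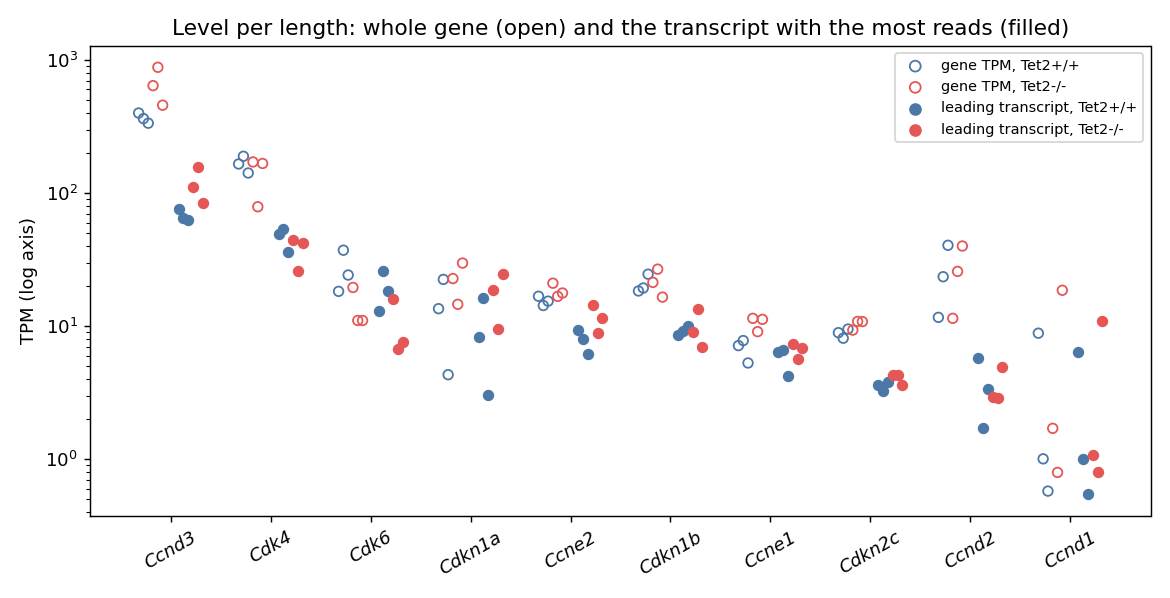
TPM of each member in each mouse on a log axis, as the sum over all transcripts of the gene (open) and for the transcript with the most reads (filled), with Tet2+/+ in blue and Tet2-/- in red. Ccnd3 is highest by both, whereas Ccnd2 drops from rank 3 to rank 9 when short fragments are set aside.

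The partners of the members were read from lists of the G1/S machinery, and no list had a gene past the adjusted threshold in edgeR's test. Of 41 tested genes in 4 lists (other inhibitors, CDK2 with its activators, ubiquitin-dependent turnover, and the RB and E2F families), 29 had estimates above 0 and 12 below, with a median of 0.14. At an unadjusted p under 0.05, 4 of the 41 had estimates above 0 and 0 had estimates below 0, where 8.11% of all genes were called in either direction. For 5 of the 41 all Tet2-/- mice lay above all Tet2+/+ mice, where 8.24% of the genes averaging 1 CPM or more did. Of the other CDK inhibitors, the INK4 gene Cdkn2d (p19) was the most abundant. All 5 had estimates above 0, but for Cdkn1c (p57) the estimate rested on mouse 5, at 9.30 normalized CPM: mice 7 and 8, at 0.129 and 0.163, lay below all Tet2+/+ mice, at 2.45, 0.268 and 0.704. Cdkn2b (p15) averaged only 0.391. Cdkn2d was at 86.1, 38.9 and 61.4 normalized CPM in Tet2+/+ mice and at 151, 171 and 64.4 in Tet2-/- mice, with a log2 fold change of 1.05 (SE 0.42, adjusted p = 0.604, edgeR). Its order over the mice followed the neutrophil markers except at mouse 8 and mouse 24: mouse 7 was highest, then mice 5 and 19, and mouse 23 lowest.

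In the CDK2 list, Ccna2, the cyclin that carries CDK2 through S phase, was at 112, 64.1 and 79.4 normalized CPM in Tet2+/+ mice and at 140, 156 and 115 in Tet2-/- mice. The groups did not overlap, though mouse 8 was close to mouse 19 (log2 fold change 0.68, SE 0.24, adjusted p = 0.584, edgeR). Cdc25b, a phosphatase that activates CDKs, also separated, with 28.5 to 41.5 against 44.0 to 48.5 normalized CPM (log2 fold change 0.45, adjusted p = 0.609, edgeR). Cdk2 itself was level, with a log2 fold change of 0.03 (SE 0.19). In the turnover list, none of 13 genes had an unadjusted p under 0.05. Its most abundant members, Ddb1 and Cul1, had log2 fold changes of 0.06 and -0.01. Of the 13, 9 had estimates above 0 and 4 below. In 2 of them, Cks1b and Fzr1, all Tet2-/- mice lay above all Tet2+/+ mice, where 8.24% of the genes averaging 1 CPM or more did. These 2 were looked up after their values had been seen (log2 fold changes 0.43 and 0.42, adjusted p = 0.642 and 0.621, edgeR).

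In the RB and E2F list, E2f2, an activating E2F, had the smallest p of all G1/S genes examined. It was at 173, 104 and 105 normalized CPM in Tet2+/+ mice and at 274, 381 and 235 in Tet2-/- mice. All Tet2-/- mice were higher, and mouse 7, as for Ccnd3, was highest. For E2f2 the log2 fold change was 1.22 (SE 0.29, adjusted p = 0.333, edgeR), and DESeq2 on the same counts gave an adjusted p of 0.0167. On simulated data in which no gene changed, DESeq2 made 38 calls and edgeR 0. The retinoblastoma gene Rb1 and the E2F gene E2f1 had log2 fold changes of 0.05 and -0.08. Of 16 transcription regulators of the members, 7 had estimates above 0 and 9 below. At an unadjusted p under 0.05, 1 of the 16 was called, where 8.11% of all genes were. This was Men1, the gene of menin, which with KMT2A keeps Cdkn1b and Cdkn2c on (log2 fold change 0.45, SE 0.19, adjusted p = 0.613, edgeR). Its values were 29.9, 35.9 and 31.1 normalized CPM in Tet2+/+ mice and 51.0, 46.0 and 35.8 in Tet2-/- mice, with mouse 8 just below mouse 23.

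Genes of S phase and mitosis had estimates on the same side of 0 as the E-type cyclins. All 18 proliferation markers had estimates above 0, with a median of 0.35, where 11112 of all 22170 genes had estimates above 0. For 6 of them all Tet2-/- mice lay above all Tet2+/+ mice, where 8.24% of the genes averaging 1 CPM or more did, but none passed the adjusted threshold in edgeR's test. Their summed level was 3527, 2669 and 2754 normalized CPM in Tet2+/+ mice and 3755, 3722 and 3584 in Tet2-/- mice. Markers of other cell states differed between the same mice. All 11 neutrophil markers had estimates above 0, with a median of 0.94 and sums that overlapped between the genotypes. The 10 stem and progenitor markers summed to less in every Tet2-/- mouse than in any Tet2+/+ mouse, as given beside Cdk6; the part of either in the proliferation genes was not tested. At an unadjusted p under 0.05, 3 of the 18 proliferation markers were called, where 8.11% of all genes were. These were Aurkb, Aurka and Plk1, kinases of mitosis, with log2 fold changes of 0.69, 0.65 and 0.78. Their adjusted p were 0.499, 0.561 and 0.604 in edgeR's test. The genes of the replicative helicase, Mcm2 to Mcm7, had log2 fold changes from 0.03 to 0.21. When scaled by library size alone, the median of all genes moved by -0.17, so that estimates of this size are to be read relative to that shift.

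**Figure D4:**
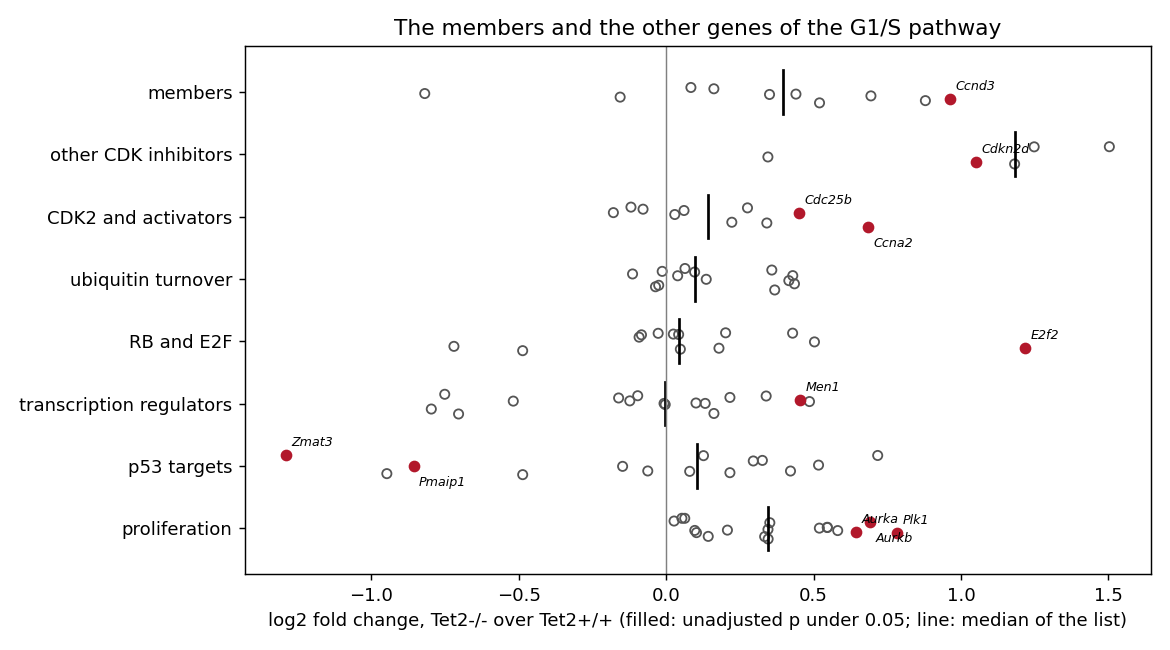
Log2 fold change of Tet2-/- over Tet2+/+ for the members and 7 gene lists of the G1/S pathway, 1 point per gene, filled where the unadjusted p of edgeR's test was under 0.05, with the median of each list as a line. E2f2 at 1.22 and Cdkn2d at 1.05 are the filled points farthest above 0, and Zmat3 at -1.29 the farthest below.

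**Figure D5:**
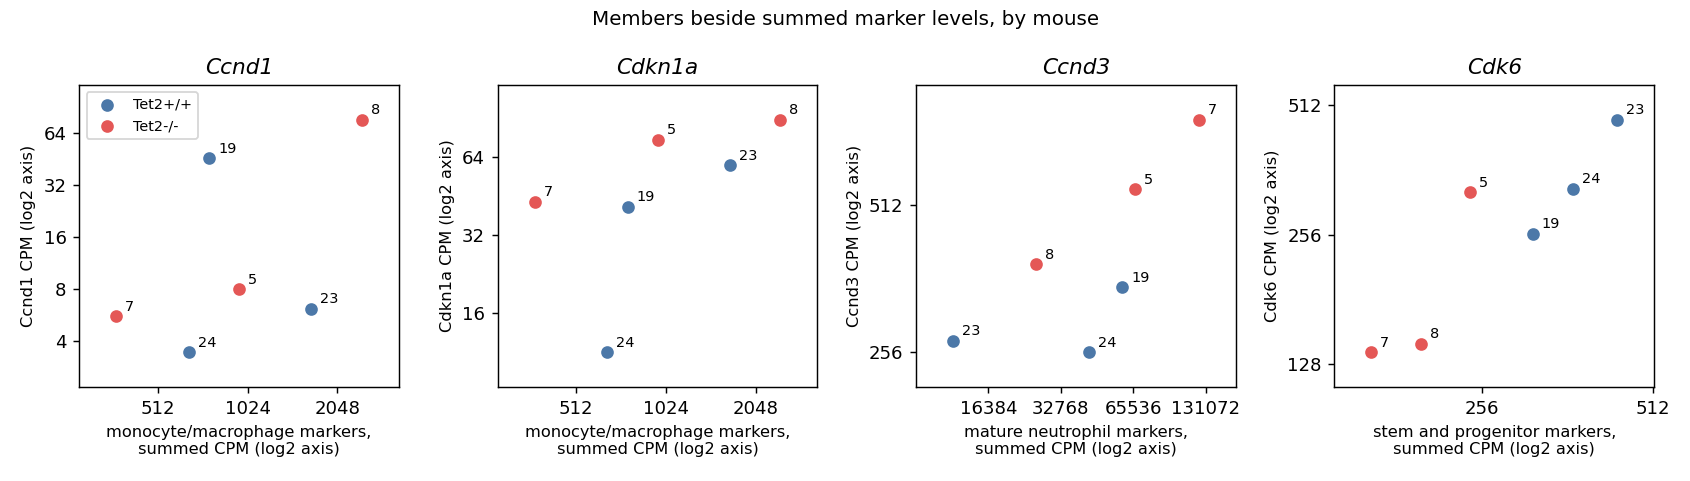
Normalized CPM of Ccnd1, Cdkn1a, Ccnd3 and Cdk6 in each mouse against the summed normalized CPM of a marker list, on log2 axes, with Tet2+/+ in blue and Tet2-/- in red. Ccnd1 is high in mice 19 and 8, Ccnd3 is highest in mouse 7, which has the most neutrophil transcripts, and Cdk6 is lowest in mice 7 and 8, which have the lowest stem and progenitor sums.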

How the data were processed

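RNA-seq was made from sorted AML blasts of 3 Cebpa-/p30 Tet2+/+ and 3 Cebpa-/p30 Tet2-/- mice, grouped by their labels. The authors prepared unstranded TruSeq libraries and ran Salmon 0.12.0 against Ensembl 94 transcripts (GRCm38). The deposited files hold, per transcript, the estimated count of reads, the TPM and the effective length, a length in bases corrected for fragment size. Transcripts were summed to genes with GENCODE M21; 112 of 136288 transcripts had no gene there and held between 0.0307% and 0.0416% of the reads, left out. Estimated counts were rounded to whole numbers, and genes were dropped when their counts, scaled by library size, added up to less than 10 over all mice; the study set the same minimum on DESeq2-normalized, length-scaled counts. edgeR 4.0.16 (R 4.3.3; TMM, quasi-likelihood test, two-sided) was the main test, whose common biological coefficient of variation was 43.6%. The study used DESeq2 on length-scaled counts, run here as an alternative (DESeq2 1.42.0), as were limma 3.58.1 on log2(TPM + 1) and log2(TPM + 0.1), other scalings and filters, and leaving out each mouse. Exact permutation tests used scipy 1.17.1. The scripts were tested on simulated data. Of 22170 genes, 200 were given a change of 2 on the log2 scale, up or down. edgeR recovered 51% of these with 6 false calls, and DESeq2 84% with 88 false calls. With no gene changed, edgeR made 0 calls and DESeq2 38.

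The members and gene lists were chosen with earlier results of these data known. Named were all members, Tet2, the genes of each pathway list (not the cell type markers) with an unadjusted p under 0.05 (or, with none, up to 2 of its most abundant), and the 3 genes nearest in pattern to each of the 3 members with the smallest p; others were chosen after their values were seen, as said beside them or as comparators. Sequences came from the RefSeq promoter table (GRCm38.p6), which matched 7 of the 10 members by symbol with 10 windows; the 250 bases before each start were searched. Shared sequence was found with BLAST+ 2.17.0 at an identity of at least 95%. Intervals of counting error are not given, since only 3 mice per genotype limit the precision; depth ran from 13036643 to 32855343 estimated counts. The labels do not say whether mice shared a donor.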

Additional observations from a re-analysis of the deposited data

How the results depend on the processing

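Under the 17 alternatives no member passed an adjusted p of 0.05, and DESeq2 on the same counts gave Ccnd1 no adjusted p. Ccnd3, Ccne1, Ccne2, Cdk6, Cdkn1a and Cdkn2c kept their direction throughout. Scaled by library size alone, which moved the median of all genes from 0.00 to -0.17, Ccnd2 turned to -0.044 and Cdkn1b to -0.033. Leaving out single mice moved Ccnd1 from -1.44 to 2.64, Ccnd2 from -0.29 to 0.71, Cdk4 from -0.37 to 0.069 and Cdkn1b from -0.076 to 0.36; the cause was not tested. The number of members with an unadjusted p under 0.05 rose from 1 to 2 with edgeR on length-scaled counts, RLE normalization or library size alone, and to 3 with DESeq2 on length-scaled counts, without a filter, or with limma on log2(TPM + 1) or log2(TPM + 0.1). It was 1 to 2 when single mice were left out. The number of members without overlap was 2 to 4 under other scalings and filters and 3 to 6 without single mice, where fewer mice separate more easily.

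Over all genes, the 10 calls of edgeR became 385 with DESeq2 on the same counts and 386 on length-scaled counts, 5 with edgeR on length-scaled counts, 66 without a filter, 1 with protein-coding transcripts only (14268 genes tested), and 18 and 19 with limma at the 2 pseudocounts. Leaving out single mice gave 0 to 7 calls in edgeR, with 1018 to 2090 genes at an unadjusted p under 0.05, against 1799 with all mice and 1062 with protein-coding transcripts only. Of the 1799, 63.1% were lower in Tet2-/- mice, against 85.8% when scaled by library size alone, 75.0% and 75.3% with limma at the 2 pseudocounts, 73.0%, 75.4% and 72.5% without mice 23, 24 and 5, and 51.4% without mouse 7. One gene of the RB and E2F list, E2f2, was called by DESeq2 on either kind of counts. DESeq2 made more false calls than edgeR on the simulated data. Shares within a class by leading transcript were added after seeing the data. No paired analysis was possible because the sample numbers are not shared between the genotypes. With 3 mice per genotype, a p above the threshold does not show that a member was unchanged.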
